A study of Phycomyces blakesleeanus with 24 samples.

Results

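AOX and NDE2, an alternative oxidase gene and a gene of an external alternative NADH dehydrogenase by their symbols, were followed in Phycomyces blakesleeanus, a filamentous fungus whose aerial sporangiophores carry the spores. Both genes were found by their symbols in the RefSeq gene table of assembly Phybl2, as PHYBLDRAFT_17724 (AOX) and PHYBLDRAFT_75629 (NDE2), and make up 2 of the 14490 genes listed in at least 1 of the authors' 4 deposited tables. The series sequenced RNA of a wild type strain and of ΔL51, named a photoreceptors mutant in the labels, which do not give its alleles. Mycelium and sporangiophores of each strain grew on PDA in darkness or in light. Age, light dose and exposure time are not given in the sources used here. Of 24 libraries, 3 in each of 8 groups, the authors kept 20 after setting aside 4 for greater dispersion, which is a choice on the measured outcome. Wild type mycelium kept 2 dark and 3 light libraries, wild type sporangiophores 2 dark and 2 light, ΔL51 mycelium 3 dark and 3 light, and ΔL51 sporangiophores 2 dark and 3 light.

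In the respiratory chain, electrons from NADH normally enter at complex I and pass through complexes III and IV to oxygen, and protons are pumped on the way. Fungi and plants also carry single-protein bypasses. Alternative NADH dehydrogenases oxidize NADH on the inner or the outer face of the inner mitochondrial membrane without pumping protons, and the alternative oxidase passes electrons from ubiquinol straight to oxygen. A chain made of an external dehydrogenase and the alternative oxidase can therefore oxidize cytosolic NADH without conserving energy. In Neurospora crassa, the alternative oxidase is known as a gene whose RNA rises when the cytochrome pathway is blocked.

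Each comparison is one of the authors' deposited tables, with the log2 fold change, an average log2 CPM (log2 of counts scaled to library size), a likelihood ratio and an FDR for each gene. The titles of the tables put light first, so a positive fold is taken as more RNA in light; the headers do not say so. For the sporangiophores this matters: all 842 genes called in both the wild type and the ΔL51 sporangiophore tables had opposite signs in them. Should the ΔL51 sporangiophore table run from light to dark, every fold given from it would change sign. A gene is called where the authors' FDR is under 0.05. No values per library were analysed here. The depth is therefore unknown, no spread between replicates can be given, and neither can the level in each group nor a check of the labelled structures. An approximate standard error of each log2 fold change was obtained as the size of the fold over the root of its likelihood ratio, and approximate 95% intervals follow from it under a normal distribution. Both genes were proposed with these folds known. Their FDRs, and their adjusted p-values under other settings, are therefore given as a description and not as evidence.

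The RNA of AOX was lower in light in ΔL51 sporangiophores and was not called in the other 3 comparisons. In the authors' deposited table of ΔL51 sporangiophores, AOX fell by 2.07 on the log2 scale (FDR 1.6e-06), which put light 4.20-fold below dark. The approximate interval of this log2 fold change was -2.83 to -1.31. In wild type sporangiophores the authors' deposited table gave AOX a log2 fold change of 0.74 (FDR 0.53), with an interval of -0.33 to 1.81.

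In mycelium the folds of AOX were poorly determined. The authors' deposited table of wild type mycelium listed a log2 fold change of 0.06 (FDR 1.0), and the interval ran from -1.90 to 2.01. For ΔL51 mycelium the authors' deposited table listed 0.69 (FDR 0.93), with an interval of -0.96 to 2.35. The approximate standard error of the AOX fold was 0.998 in wild type mycelium and 0.845 in ΔL51 mycelium, against 0.387 in ΔL51 sporangiophores.

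NDE2 RNA was higher in light in both wild type structures and lower in ΔL51 sporangiophores, but both sporangiophore folds changed sign once the trend of folds on expression level was taken out. In the authors' deposited table of wild type mycelium, NDE2 rose by 1.52 on the log2 scale (FDR 1.9e-04), or 2.87-fold, with an interval of 0.86 to 2.18. In wild type sporangiophores it rose by 1.20 (FDR 0.042), or 2.30-fold, in the authors' deposited table, with an interval of 0.40 to 2.00. That second call lay near the threshold and ended when p-values were taken from an F distribution with 12 denominator degrees of freedom in place of the chi-square (adjusted p = 0.16).

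For ΔL51 the folds of NDE2 were negative in both structures. In ΔL51 sporangiophores NDE2 fell by 1.72 (FDR 1e-05), so that light was 3.30-fold below dark, in the authors' deposited table, with an interval of -2.40 to -1.05. ΔL51 mycelium had a log2 fold change of -0.58 (FDR 0.85) in the authors' deposited table, with an interval of -1.56 to 0.41, and NDE2 was not called there.

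**Figure D1:**
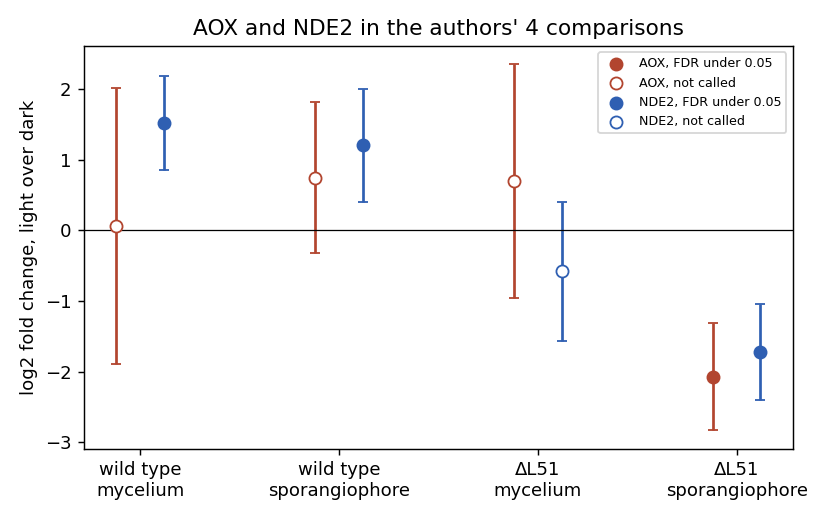
Log2 fold change of light over dark for AOX and NDE2 in the authors' 4 deposited comparisons (x axis, strain and structure). Points are deposited folds, filled where the FDR is under 0.05, and bars are approximate 95% intervals. Both genes lie below 0 in ΔL51 sporangiophores (-2.07 and -1.72), and NDE2 lies above 0 in both wild type structures (1.52 and 1.20). The plot shows folds before the trend on expression level is taken out, which turns the sign of both sporangiophore folds of NDE2.

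The share of all genes called gives the background of these calls, from which nothing is read for genes chosen on the same folds. In wild type mycelium 9.86% of 14410 genes were called higher and 4.18% lower. In wild type sporangiophores 7.23% were higher and 1.18% lower. In ΔL51 mycelium 0.541% of 14242 genes were higher and 0.576% lower, and in ΔL51 sporangiophores 3.31% of 14410 were higher and 12.3% lower. By likelihood ratio, AOX ranked 775 of 14410 in ΔL51 sporangiophores, 4754 in wild type sporangiophores, 6321 of 14242 in ΔL51 mycelium and 11013 in wild type mycelium. NDE2 ranked 499 in wild type mycelium, 858 in ΔL51 sporangiophores, 1137 in wild type sporangiophores and 4189 in ΔL51 mycelium.

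Folds moved with expression level in the sporangiophore tables, and the running median of the folds was large at the level of NDE2 and near 0 at that of AOX. NDE2 had an average log2 CPM of 9.47, above 98.2% of genes, and the running median of the folds at that level was 1.53 in wild type and -1.88 in ΔL51 sporangiophores. With this trend taken out, NDE2 had -0.33 (adjusted p = 0.78) in wild type sporangiophores and 0.15 (adjusted p = 0.85) in ΔL51 sporangiophores, so both calls ended and both signs turned. AOX had a log2 CPM of 4.51, above 47.5% of genes, where the running median was 0.08 in ΔL51 sporangiophores. Its fold there was -2.15 with the trend taken out (adjusted p = 8.1e-07). In wild type mycelium the running median at the level of NDE2 was -0.20, and its fold was 1.72 with the trend taken out (adjusted p = 1.4e-05).

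The strains were set side by side for each structure as the difference of their log2 folds, wild type minus ΔL51. Intervals of all differences given here take the 2 tables as independent, which was not checked. For sporangiophores the difference was 2.81 for AOX, with an approximate interval of 1.50 to 4.13, and 2.92 for NDE2, with an interval of 1.88 to 3.97. For mycelium the difference was 2.10 for NDE2 (0.91 to 3.29) and -0.64 for AOX (-3.20 to 1.93). With the trend on expression level taken out, the sporangiophore difference was 3.01 for AOX and -0.48 for NDE2. The mycelium difference of NDE2 was then 2.17. With the sign of the ΔL51 sporangiophore table turned, the sporangiophore difference would be -1.33 for AOX (-2.64 to -0.02) and -0.52 for NDE2 (-1.57 to 0.53).

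Between structures of one strain, the fold of AOX was lower in sporangiophores than in mycelium of ΔL51, by 2.77 on the log2 scale (interval of the difference -4.59 to -0.94). For NDE2 in ΔL51 the same difference was -1.14 (-2.34 to 0.05). In the wild type the intervals of both genes included 0, at 0.68 (-1.55 to 2.91) for AOX and -0.32 (-1.36 to 0.72) for NDE2. These differences come from folds that chose the genes and carry no test.

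The average log2 CPM of AOX differed between the fits behind the tables. The 2 wild type tables and the ΔL51 sporangiophore table carried the same log2 CPM for every gene, while the ΔL51 mycelium table carried its own. AOX had 4.51 in the former and 5.43 in the latter, a shift of 0.91 that was higher than the shift of 99.9% of 14162 shared genes, whose median was -0.22. NDE2 shifted by 0.20, from 9.47 to 9.67, above 96.6% of genes. Which libraries each average covers is not given in the sources used here.

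The gene table names 8 NADH dehydrogenase genes of the alternative kind, 6 with NDE and 2 with NDI symbols, the latter by yeast usage on the inner side of the membrane. Beside NDE2 these are NDE, NDE1, NDE1_2, NDE3, NDE4, NDI and NDI2, and all 7 were measured in the 4 tables. How reads were shared among similar copies is not given in the sources used here, so values of single copies are uncertain to that extent. At an unadjusted p under 0.05 from the authors' edgeR test, without regard to direction, the wild type had 2 of the 7 in mycelium and 1 in sporangiophores, and ΔL51 had 2 and 3. Over all genes that share was 24.1% and 18.5% in the wild type tables and 9.32% and 25.7% in those of ΔL51, in the same order.

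In wild type mycelium (9.86% of all genes higher, 4.18% lower) 1 of the other 7 dehydrogenases was called higher and 0 lower. This was NDE4, with a log2 rise of 1.01 in the authors' deposited table (FDR 0.0043). The call was lost with the F distribution (adjusted p = 0.0504) and after centring the folds on their median of 0.39 (adjusted p = 0.101). The median log2 fold change of the 7 was 0.47, beside 0.39 over all genes with a fold other than 0. Over all genes the median was 0, with 3193 listed at exactly 0. NDE2 at 1.52 was above all 7, also with the trend taken out.

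In wild type sporangiophores (7.23% of all genes higher, 1.18% lower) 1 of the 7 was called higher and 0 lower. This was NDI2, whose log2 rise was 1.04 in the authors' deposited table (FDR 0.024). The F distribution ended this call too (adjusted p = 0.13), and after removal of the trend on expression level the fold was -0.03 (adjusted p = 0.99). The 7 had a median of 0.21 and ranged from -0.18 for NDE1 and NDE3 to 1.04, and NDE2 at 1.20 was above them all. With the trend taken out NDE2 was below 5 of the 7, and AOX, at 0.85, above all 7.

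ΔL51 mycelium (0.541% of all genes higher, 0.576% lower) had 0 of the 7 called higher and 1 lower. According to the authors' deposited table NDE fell by 1.28 (FDR 0.024), a call lost with the F distribution (adjusted p = 0.38). NDE1_2 had the highest fold of the 7 in this table, 1.56, and was not called (FDR 0.51). NDE2 at -0.58 lay between members, with 3 of the 7 below it.

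In ΔL51 sporangiophores (3.31% of all genes higher, 12.3% lower) 0 of the 7 were called higher and 1 was lower. NDI2, the called gene, fell by 1.10 on the log2 scale according to the authors' deposited table (FDR 9.4e-04), and with the trend taken out its fold was 0.03 (adjusted p = 0.97). The median of the 7 was -0.54, beside 0.05 over all genes. AOX and NDE2 had lower folds than each of the 7, and with the trend taken out this held for AOX, while NDE2 lay above 5 of them. NDE4 had -0.77 (FDR 0.089), NDE1_2 -0.58 (FDR 0.20) and NDE1 -0.54 (FDR 0.16) in the authors' deposited table, and none of these 3 was called.

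**Figure D2:**
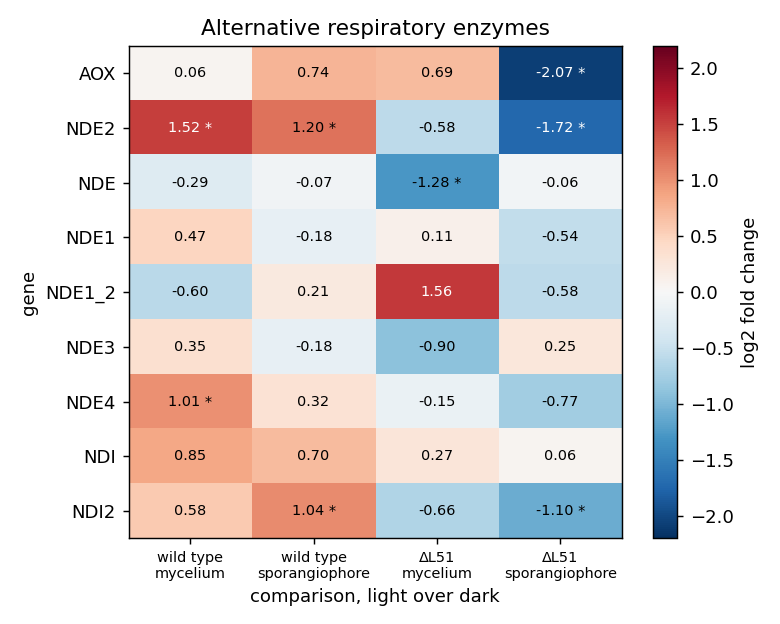
Log2 fold change of light over dark (colour and printed value) for AOX and the 8 alternative NADH dehydrogenase genes in rows, with the authors' 4 deposited comparisons in columns. Asterisks mark an FDR under 0.05. NDI2 carries calls of opposite sign in wild type (1.04) and ΔL51 (-1.10) sporangiophores, and so does NDE2 (1.20 and -1.72). All 842 genes called in both sporangiophore comparisons had opposite signs, so this is not particular to these genes. The folds of both genes change sign in both sporangiophore comparisons once the trend on expression level is taken out.

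The difference between strains was tested for the 7 other dehydrogenases with the approximate standard errors, with Benjamini-Hochberg adjustment over all genes. The test also takes the 2 tables as independent. In sporangiophores NDI2 differed by 2.14 on the log2 scale, with an interval of 1.30 to 2.98 (adjusted p = 9.7e-06 from the edgeR likelihood ratios), where 14.0% of 14401 genes differed in that direction. With the trend on expression level taken out the difference was -0.05 (adjusted p = 0.96), and with the sign of the ΔL51 table turned it would be -0.06 (adjusted p = 0.99). NDE4 differed by 1.09 (adjusted p = 0.12), and the other 5 lay between -0.43 and 0.80.

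By the same test from the edgeR likelihood ratios, 0 of the 7 passed for mycelium, with 2 at an unadjusted p under 0.05, where 14.5% of 10462 genes differed in either direction. Between structures 0 of the 7 passed in the wild type (0 at an unadjusted p under 0.05) and 0 in ΔL51 (2 at an unadjusted p under 0.05), where 19.9% and 11.9% of genes differed.

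The genes of the main respiratory chain and of ATP synthase give a scale for these folds. They were grouped by symbol into complex I (32 genes), complex II (5), complex III (14), complex IV (12) and ATP synthase (24), 87 in all, including assembly factors where the symbol matched. The rule for complex III also took cytochrome c symbols, and none matched. In wild type mycelium NDE2 had a higher fold than 85 of the 87, and the list medians were negative in every group, from -0.67 for complex III to -0.12 for complex I. Of the 87, 6 were called higher (9.86% over all genes) and 11 lower (4.18% over all genes). After centring 2 were higher and 30 lower, beside 907 and 1344 of 11217 genes.

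In wild type mycelium 2 genes lay above NDE2. NDUFA4, in the complex I list by its symbol alone, was not called (1.61, FDR 0.55). QCR1_3 of the complex III list rose by 2.93 (FDR 6.2e-10) in the authors' deposited table. The other list leaders that rose there were NDUFS7 (0.74), SDH1, the flavoprotein subunit of succinate dehydrogenase by its symbol (0.90), COX4_2 (1.18) and ATP16_2 (1.14) in the authors' deposited table. The called genes with the largest fall of their list were NDUFA4_2 (-2.61), INH1_2 (-1.64) and QCR8 (-0.94) in the authors' deposited table.

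In wild type sporangiophores the deposited fold of NDE2 lay within those of the complexes and that of AOX in their lower part. Of the 87 genes, 49 were called higher (7.23% over all genes) and 1 lower (1.18% over all genes), with a median of 1.34. NDE2 at 1.20 had 51 of them above it and 36 below, and AOX at 0.74 had 65 above it and 22 below. The median was 1.22 for complex I, 1.52 for complex II, 1.42 for complex III, 1.31 for complex IV and 1.53 for ATP synthase. With the trend on expression level taken out, 13 of the 87 were higher and 1 lower, beside 450 and 200 of 14401 genes. The median of the 87 was then 0.55, with AOX above it at 0.85 and NDE2 below it at -0.33. The largest rise of each list was that of NDUFA4_3 (3.65), SDHD (2.91), RIP1_2 (2.77), INH1 (2.67) and COX9 (2.53), and QCR1 fell by 1.02, in the authors' deposited table.

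In ΔL51 sporangiophores the deposited folds of both genes again lay within the range of the complexes. Of the 87 genes, 62 were called lower (12.3% over all genes) and 1 higher (3.31% over all genes), with a median of -1.68. NDE2 at -1.72 had 44 above it and 43 below, and AOX at -2.07 had 54 above it and 33 below. The list medians were -1.48 for complex I, -2.31 for complex II, -2.10 for complex III, -2.05 for complex IV and -1.64 for ATP synthase. After removal of the trend 38 were called lower and 3 were called higher, beside 1396 and 621 of 14410 genes. The median of the 87 was then -0.88, with AOX below it at -2.15 and NDE2 above it at 0.15. The largest fall of each list was that of NDUFA4 (-4.97), ATP5 (-4.67), COX6B_2 (-4.04), RIP1_2 (-3.97) and SDHD (-3.08), and QCR1 rose by 0.80, in the authors' deposited table.

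In ΔL51 mycelium neither gene was called, and both lay inside the range of the complexes. AOX at 0.69 had a higher fold than 81 of the 87, and NDE2 at -0.58 a higher fold than 15. By the authors' edgeR test 1 of the 87 was called lower, NDUFA4_3 at -2.69 (FDR 6.4e-04) in the authors' deposited table, and 0 were called higher, with 8 at an unadjusted p under 0.05, where 9.32% of all genes were. At an FDR under 0.05, 0.576% of all genes were called lower and 0.541% higher.

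**Figure D3:**
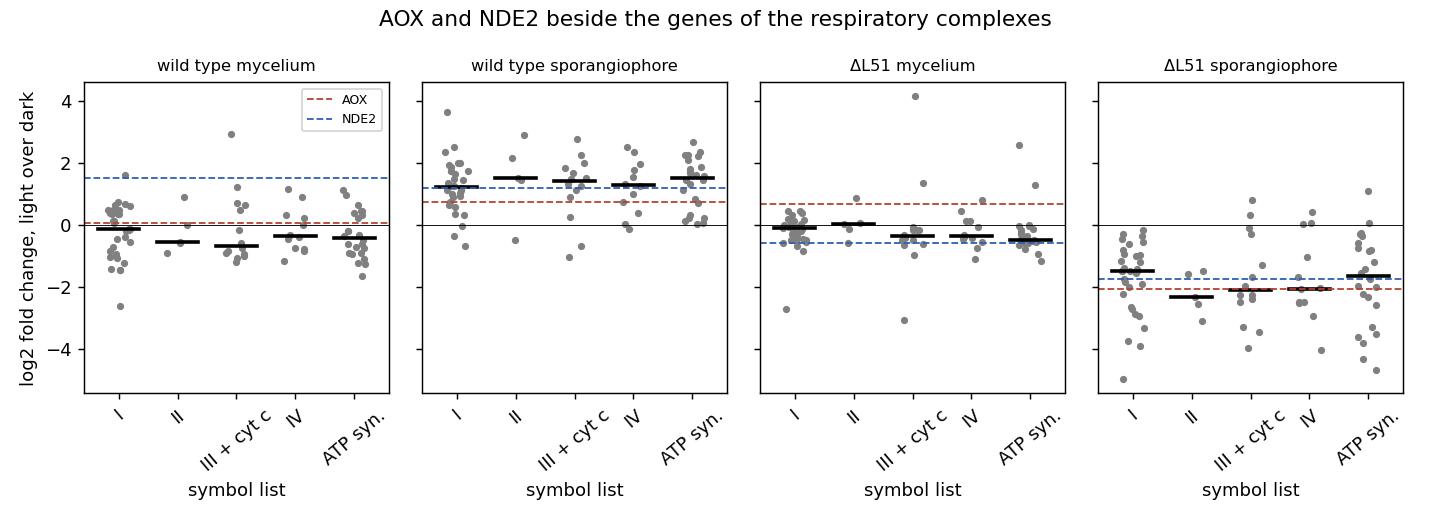
Log2 fold change of light over dark for the genes of 5 respiratory lists (grey points, with the list median as a black bar) in the authors' 4 deposited comparisons, 1 panel each. Dashed lines give the folds of AOX and NDE2. The NDE2 line lies above 85 of 87 genes in wild type mycelium and near the middle of them in both sporangiophore panels, and the AOX line lies above 81 in ΔL51 mycelium. Folds are those before the trend on expression level is taken out. With it taken out, NDE2 (-0.33) lies below the median of the 87 (0.55) in wild type sporangiophores. In ΔL51 sporangiophores NDE2 (0.15) then lies above that median (-0.88).

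**Figure D4:**
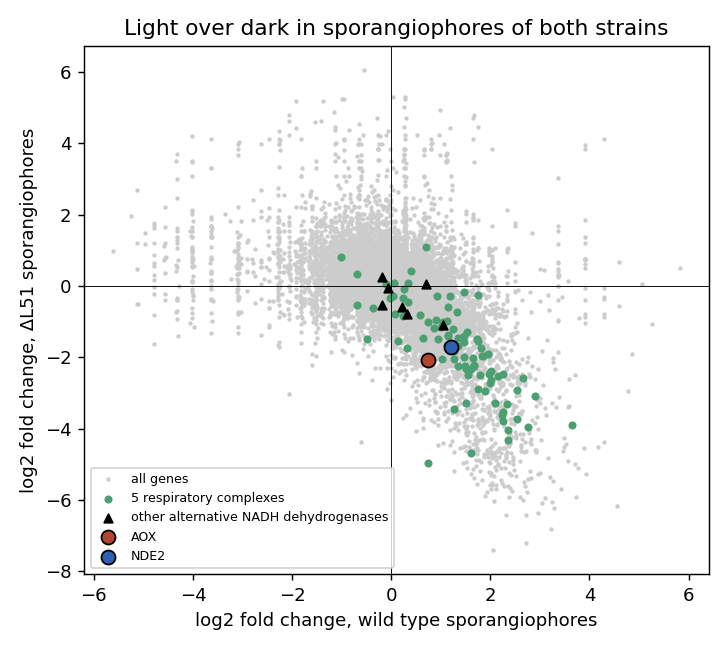
Log2 fold change of light over dark in wild type sporangiophores (x axis) and in ΔL51 sporangiophores (y axis), with 1 point per gene. AOX (0.74, -2.07) and NDE2 (1.20, -1.72) lie at the lower right among the genes of the 5 complexes, and the other alternative NADH dehydrogenases lie nearer to 0. The plot holds folds before the trend on expression level is taken out.

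Genes with the most similar set of folds were ranked by Euclidean distance over the 4 log2 fold changes, among the genes measured in all 4 tables at or above the median log2 CPM. The nearest to AOX of 7205 such genes was PHYBLDRAFT_141193, at a distance of 0.25, and the authors' deposited tables gave it -0.11 (wild type mycelium), 0.58 (wild type sporangiophores), 0.77 (ΔL51 mycelium) and -2.13 (ΔL51 sporangiophores). PHYBLDRAFT_167256 (distance 0.49), PHYBLDRAFT_57688 (0.53), PHYBLDRAFT_160202 (0.55) and PHYBLDRAFT_155691 (0.57) followed. The approximate standard errors of the 4 AOX folds ran from 0.387 to 0.998, so this order is uncertain. AOX itself, at a log2 CPM of 4.51, lay under the limit of the pool (4.64). Among 172 genes with a symbol the nearest to AOX were PbIdh1a, an isocitrate dehydrogenase by its symbol (0.77), PRP4 (0.86), PbCsb (0.95), Gpb2 (1.02) and CK2B (1.02).

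The nearest of 7204 genes to NDE2 was PHYBLDRAFT_160230, at a distance of 0.36, with 1.50, 1.10, -0.25 and -1.84 in the same order of comparisons in the authors' deposited tables. PHYBLDRAFT_129191 (0.50), PHYBLDRAFT_156362 (0.57), PHYBLDRAFT_30373 (0.65) and PHYBLDRAFT_177367 (0.65) came next. The approximate standard errors of the NDE2 folds ran from 0.338 to 0.503, so this order is uncertain too. The nearest of 171 genes with a symbol included PbPdhE1a (0.69), a pyruvate dehydrogenase subunit by its symbol, QCR1_2 (0.73), ATP16_2 (0.76) and NDUFA9 (0.94). Of 213 symbols in the gene table, the respiratory lists hold 87, so respiratory genes make up much of such a pool. Distances to both genes use folds before the trend on expression level is taken out. At the level of NDE2 the running median was 1.53 in wild type and -1.88 in ΔL51 sporangiophores. Whether these genes lie near NDE2 through their expression level alone was not tested. AOX and NDE2 were 2.02 apart, and 1182 genes of the pool lay nearer to NDE2 than AOX did.

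Neither gene overlapped the entries on either side of it in the gene table. Beside AOX, PHYBLDRAFT_178681 rose by 3.37 (FDR 3.4e-11) in wild type sporangiophores and fell by 1.84 (FDR 4.3e-05) in ΔL51 sporangiophores, in the authors' deposited tables. PHYBLDRAFT_61669, on its other side, was called higher in wild type mycelium (FDR 0.006) in the authors' deposited table. Beside NDE2, PHYBLDRAFT_184883 and PHYBLDRAFT_154197 were called in none of the 4 deposited tables of the authors. These 4 neighbours were looked up for their place and not for their values. Over all genes 9.86% were called higher in wild type mycelium and 7.23% in wild type sporangiophores, and 12.3% lower in ΔL51 sporangiophores. All 842 genes called in both sporangiophore tables had opposite signs in them.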

How the data were processed

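Per the labels' protocols, Trizol served for RNA extraction, followed by the Message Amp-II kit. The submitters' processing notes name Bowtie and edgeR, and their versions, genome build, annotation and counting rule are not given in the sources used here. The deposited tables hold log2 fold changes and average log2 CPM, the likelihood ratio (a score), and p-values with their FDR, per the file headers. Recomputation gave the deposited p-values from the likelihood ratios (chi-square, 1 degree of freedom) and the deposited FDR as their Benjamini-Hochberg adjustment over the table. The calls use the deposited FDR, and adjusted p-values under other settings were computed from the deposited values.

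Row IDs were matched to the number in the Phybl2 locus tags, where 14355 of 14410 (99.6%) matched. The members and lists were chosen with earlier results of these data known. The rule for the list of other alternative NADH dehydrogenases asked for digits after the symbol, and NDE and NDI were added on the theme. Named genes were AOX, NDE2, all other alternative NADH dehydrogenases, the 5 nearest in pattern with and without a symbol, and the called gene with the largest rise and fall of each list and table. One gene that this rule names is not reported here. The neighbours in the gene table were added.

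Alternatives were an F reference with 1 and 12 degrees of freedom (20 kept libraries less 8 groups, which assumes 1 fit of all groups and may be too many for the ΔL51 mycelium table, which has its own log2 CPM), centring, a running median over 501 genes ordered by log2 CPM, and a filter at the median log2 CPM. Genes with a fold of exactly 0 have no standard error and were left out of centring, trend and difference tests, 3193 in wild type mycelium and 2793 in ΔL51 mycelium. They stayed in the running median itself. The standard error, the Benjamini-Hochberg adjustment, the trend correction and the difference test were run on simulated data. The simulated likelihood ratios were built from the standard error itself, so that check could not fail. Whether the standard error holds for edgeR likelihood ratios was not tested. The simulated trend was smaller than the running median at NDE2 in the sporangiophore tables. The F reference, centring and the filter were not run on simulated data. Python 3.11.15, numpy 2.4.6, pandas 2.3.3 and scipy 1.17.1 were used. Protein and promoter sequences were not used here.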

Additional observations from a re-analysis of the deposited data

Results flagged for a closer look

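NDI2 was marked because its deposited folds differed between the strains in sporangiophores. Its log2 fold change was 1.04 in the wild type and -1.10 in ΔL51 in the authors' deposited tables, a difference of 2.14 (approximate interval 1.30 to 2.98, adjusted p = 9.7e-06 from the edgeR likelihood ratios). Of 14401 genes, 14.0% differed in that direction. Folds moved with expression level in both tables, and the running median at the level of NDI2 was 1.07 in the wild type and -1.13 in ΔL51. With this trend taken out the difference was -0.05 (adjusted p = 0.96 from the approximate standard errors). With the sign of the ΔL51 sporangiophore table turned, the difference would be -0.06.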

How the results depend on the processing

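No paired analysis was possible because the tables hold no values per library, and replicates could not be left out for the same reason. The BLASTP search for similar proteins, the promoter motifs and the protein motifs were not run. The filter gives no value for AOX in the 3 tables where it lies under the median log2 CPM.

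Both genes were chosen on these folds, so what follows for them is a description. AOX kept its call in ΔL51 sporangiophores under the F reference, centring and the trend correction, with folds from -2.15 to -2.07. Its direction there rests on the order of light and dark in the title, which none of these settings tests. NDE2 kept its call in wild type mycelium under all 4 alternatives (1.13 to 1.72). Its adjusted p under the F reference with 12 denominator degrees of freedom was 0.021, and fewer degrees of freedom were not tried. With the trend on expression level taken out, NDE2 turned to -0.33 in wild type and 0.15 in ΔL51 sporangiophores, NDI2 to -0.028 and 0.026, and the strain difference in sporangiophores, an alternative chosen after seeing the data, to -0.48 for NDE2 and -0.054 for NDI2. The running median at the level of each gene, of similar size to its fold, is what this setting takes off. With the sign of the ΔL51 sporangiophore table turned, also chosen after seeing the data, that difference would be -1.33 for AOX, -0.52 for NDE2 and -0.060 for NDI2. Under the F reference the call of NDE2 in wild type sporangiophores ended (1.20, adjusted p = 0.16).

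Counts over all genes moved under the F reference to 756 higher and 241 lower in wild type mycelium (from 1421 and 603), 476 and 6 in wild type sporangiophores (from 1042 and 170), 8 and 2 in ΔL51 mycelium (from 77 and 82), and 130 higher and 1384 lower in ΔL51 sporangiophores (from 477 and 1779). Centring gave 907 higher and 1344 lower in wild type mycelium, so that 40.3% of calls were higher in place of 70.2%. The trend correction gave 1057 lower in wild type mycelium (49.8% of calls higher) and 450 higher in wild type sporangiophores (69.2% in place of 86.0%), and the filter 274 higher in ΔL51 sporangiophores. Under the F reference 98.8% of calls were higher in wild type sporangiophores and 80.0% of 10 in ΔL51 mycelium, where the deposited FDR gave 48.4% and centring 36.9%, and in ΔL51 sporangiophores 21.1%, 30.8% with the trend taken out and 8.59% under the F reference. The causes were not tested beyond what each setting takes off. Depth is unknown.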
